A study of Mus musculus with 36 samples.

Results

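Mouse embryonic fibroblast lines heterozygous for the N129D substitution of the kinase TBK1 were set against wild-type lines in each of 3 conditions. All libraries without a cell-density label whose labels name a het or a WT line were taken, which gave 21 of the 36 libraries of the series. The het lines, of genotype N129D/wt, were E2.8, E2.6, E2.5 and E1.3, and the WT lines were E1.5, E2.1 and E2.7. Each line had 1 untreated library, 1 library after 4 h with pI:pC and 1 library after 4 h with antimycin and oligomycin, written AO here. pI:pC is a synthetic double-stranded RNA, antimycin blocks complex III of the respiratory chain and oligomycin blocks the ATP synthase. Cells grew in DMEM, and neither the mouse strain nor whether a line stands for 1 embryo or 1 clone is given in the labels. The groups therefore held 4 het and 3 WT libraries per treatment, although the design text speaks of quadruplicates. The p-values of the main fit below rest on the spread between lines within groups, estimated over 30 libraries that include homozygous N129D lines. That fit had no block for line, although the libraries of a line are correlated. Values of the het lines are listed in the order E1.3, E2.5, E2.6, E2.8 and those of the WT lines in the order E1.5, E2.1, E2.7. They are CPM, that is, reads scaled to the same library size (TMM-adjusted), so that levels are compared between lines for 1 gene and not between genes.

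TBK1 is the kinase that links the sensors of viral RNA and DNA to interferon. RIG-I (Ddx58) and MDA5 (Ifih1) bind double-stranded RNA and act through the adaptor MAVS, while TLR3 acts through TRIF. TBK1 then phosphorylates the transcription factor IRF3, which turns on Ifnb1, and secreted interferon beta acts through its receptor on the interferon-stimulated genes. Fibroblasts use this route as a main source of interferon beta, and TBK1 also phosphorylates the mitophagy receptors optineurin and p62.

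The residue that the knock-in exchanges lies in the kinase domain. In the reference genome GRCm38 its codon occupies chr10:121571996-121571998 on the minus strand, in exon 5 of Tbk1, and belongs to a reading frame of 729 codons. The reference sequence of codons 125 to 133, chr10:121571984-121572010, is shown to place the allele, with the asparagine codon that the N129D label refers to in capitals. It is the reference sequence and not that of the edited allele.
Tbk1 codons 125 to 133: catctccgagagAACggcatagtgcac

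Tbk1 mRNA was alike in both genotypes. Untreated, Tbk1 stood at 47.8, 48.1, 49.5 and 49.7 CPM in the het lines, against 48.0, 39.0 and 49.3 CPM in the WT lines. Under pI:pC it stood at 34.5, 55.7, 42.8 and 42.7 CPM in het lines and at 36.3, 42.8 and 36.8 CPM in WT lines. Under AO the values were 72.2, 71.9, 56.6 and 69.2 CPM in het lines and 66.6, 71.2 and 67.1 CPM in WT lines. The genotypes overlapped under each treatment. The log2 difference, het minus WT, was 0.10 ± 0.13 (SE) untreated, with a 95% interval of -0.16 to 0.37, then 0.19 ± 0.13 under pI:pC and -0.02 ± 0.13 under AO. A change of 1 residue need not alter mRNA level, so this does not check the genotype labels.

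The 21 libraries held 5234667 to 9355752 counts in het lines and 4361854 to 14879227 counts in WT lines. Summed CPM of 11 fibroblast markers lay between 9470 and 15230 in het libraries and between 9888 and 15360 in WT libraries, and at least 9 of the 11 exceeded 1 CPM throughout in every line. Het line E2.6 stood apart over many genes, and het line E2.5 in the markers given here. Of all 13364 genes tested, E2.6 was the lowest of the 7 lines in 24.5% untreated, 26.2% under pI:pC and 27.9% under AO, and it was the highest in 3410, 3585 and 3503 genes. The 16 macrophage markers listed summed to 63.0, 57.3 and 39.1 CPM in E2.6 untreated, under pI:pC and under AO, against 3.23 to 11.1 CPM in the other het libraries and 3.49 to 5.87 CPM in WT libraries. In E2.6, 13 of the 16 exceeded 1 CPM under all 3 treatments, led by Lyz2 and Csf1r, while 0 to 2 did in each other line. Epithelial and keratinocyte markers summed to 108, 113 and 91.6 CPM in E2.5, against 8.90 to 43.4 CPM in the other het libraries and 20.01 to 44.8 CPM in WT libraries, with the keratin Krt5 at 0 in E2.5. In E2.5, 5 of the 10 exceeded 1 CPM under all 3 treatments, as did 5 in WT line E2.7, and the E2.5 sum was led by Krt18 (a mean over treatments of 32.6 CPM), Krt8 (25.2 CPM) and Krt19 (23.9 CPM, against 25.2 CPM in het line E1.3). E2.6 also had the highest sums of endothelial markers (96.8 to 120.3 CPM) and skeletal muscle markers (22.7 to 35.7 CPM). The same held for smooth muscle markers (3628 to 4029 CPM). E2.5 had the highest sums of adipocyte markers (149 to 167 CPM), led by Lpl. In E2.6 Flt1 and Kdr led the endothelial sum, and Tie1 and Cldn5 were at 0. Of the 10 endothelial markers, 3 exceeded 1 CPM under all 3 treatments in E2.6, against 3 or 4 in each other line. Acta1 and Des led its skeletal muscle sum, and Myod1, Myog and Myf6 were at 0. In that list 3 of 10 did so, against 0 or 1 in each other line. Whether such cells were present was not tested. Xist was high in 1 of 4 het and 2 of 3 WT lines, so the sexes of the lines were not balanced. The level, spread and pI:pC response of the interferon-stimulated list are given below with and without E2.5 and E2.6. For the stress response and cholesterol genes, the median het minus WT differences in level are given with and without E2.6.

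Across all genes the het and WT lines could not be told apart by the test. With edgeR's quasi-likelihood test and Benjamini-Hochberg adjustment over 13364 genes, 0 genes passed an adjusted p of 0.05 in the untreated cells, under pI:pC or under AO, which is 0% of those tested in each. At an unadjusted p under 0.05 there were 90 genes untreated (0.673%), 140 under pI:pC (1.05%) and 64 under AO (0.479%). DESeq2 called 0 genes in each as well, with 103, 132 and 71 at an unadjusted p under 0.05. Evenly spread p-values would put a share of 0.05 of all genes there, and these shares were lower. The p-values thus ran high, and so few genes do not show that the genotypes are alike. Signed differences over all genes centred near 0, which the scaling favours and which does not give the size of single changes. The median log2 difference over all genes was 0.01 untreated, 0.02 under pI:pC and -0.00 under AO, with a median SE of 0.22 in each. Counts of the 3 libraries of each line were also summed, which leaves the 7 lines as replicates but weights treatments by depth. In these sums edgeR called 0 of 14076 genes, with 51 at an unadjusted p under 0.05 (0.362%). A gene that misses the threshold is not thereby shown to be the same in both genotypes, and for the interferon-stimulated genes the intervals were wide, as the next paragraphs give.

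In the interferon pathway the 4 het lines lay far apart while the 3 WT lines lay close together, and E2.5 and E2.6 made up most of that scatter. Of a list of 88 interferon-stimulated genes, 86 were tested. Their mean log2 CPM untreated was 3.64, 5.71, 2.85 and 3.29 in the het lines, against 4.27, 4.22 and 4.07 in the WT lines. Under pI:pC it was 5.61, 7.67, 4.16 and 5.83 in het lines and 5.97, 6.14 and 6.29 in WT lines. Under AO it was 3.58, 5.39, 2.74 and 2.96 in het lines and 3.99, 3.94 and 4.22 in WT lines. E2.5 lay above every WT line and E2.6 below every WT line under each treatment, so the het lines enclosed the WT lines. E1.3 lay below all WT lines throughout too, and so did E2.8. In bulk RNA, fewer cells of a type and less RNA per cell cannot be told apart. The het lines spanned 2.86 log2 units untreated, 3.51 under pI:pC and 2.65 under AO, against 0.20, 0.32 and 0.28 in the WT lines. Without E2.5 the het lines spanned 0.80, 1.68 and 0.84 log2 units, and without E2.6 they spanned 2.42, 2.05 and 2.43. E1.3 and E2.8, the het lines left without both, were 0.36, 0.22 and 0.62 apart, so that under pI:pC they lay closer together than the WT lines.

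**Figure D1:**
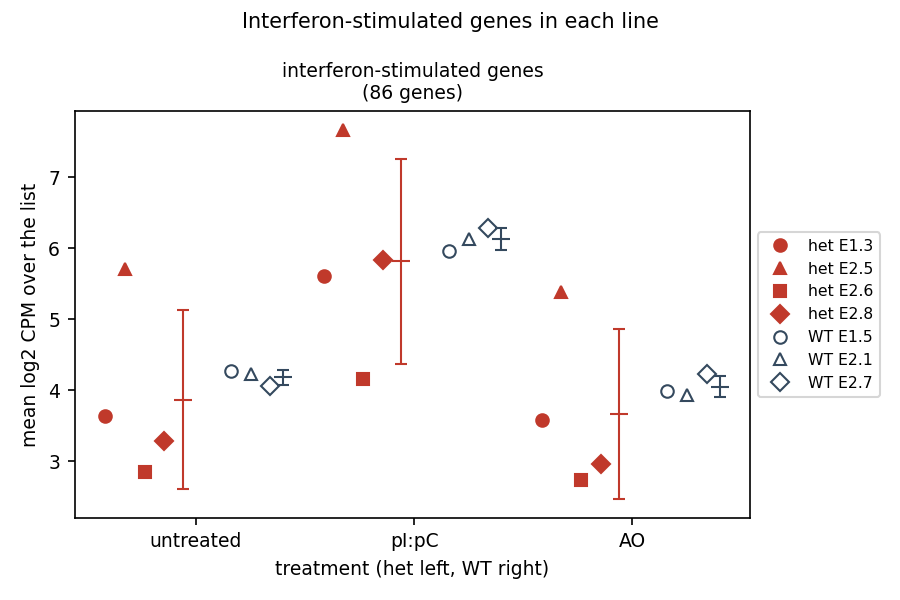
Mean log2 CPM of the 86 tested interferon-stimulated genes (y axis) in each library by treatment (x axis), het lines left in filled red and WT lines right in open dark symbols, with mean ± SD over lines. The het lines spread from 2.85 to 5.71 untreated, while the WT lines lie between 4.07 and 4.27.

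The means of the groups were close beside that scatter. Untreated, the list averaged 3.87 ± 1.27 in het lines and 4.19 ± 0.11 in WT lines (SD over 4 and 3 lines). Under pI:pC it averaged 5.82 ± 1.44 in het lines and 6.13 ± 0.16 in WT lines, and under AO 3.67 ± 1.20 in het lines and 4.05 ± 0.15 in WT lines. The difference of these means, het minus WT, was -0.32, -0.31 and -0.39. The fit on counts gave another sign in 2 of the 3 treatments: its median log2 difference over the list was 0.13 untreated (64 of 86 positive), 0.18 under pI:pC (66 positive) and 0.00 under AO (43 positive), beside medians of 0.01, 0.02 and -0.00 over all genes. The list's direction also turned on single lines. Without E2.5 the count fit gave medians of -0.93, -0.77 and -1.05, and without E2.6 it gave 0.42, 0.52 and 0.25. Without both, which was added after seeing the data, it gave -0.73, -0.39 and -0.85 (82, 82 and 84 of 85 negative), and none of these fits called a gene. No direction of the list is therefore given for het against WT.

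The highest line was the same in nearly the whole list, and the lowest line in most of it. Among the 7 lines E2.5 was the highest in 84 of 86 interferon-stimulated genes untreated, in 86 under pI:pC and in 83 under AO, whereas over all genes it was the highest in 14.01%, 16.3% and 12.8%. E2.6 was the lowest in 61, 79 and 55 of the 86. Both held at once in 70.9% of the list untreated, 91.9% under pI:pC and 64.0% under AO, against 4.49%, 5.96% and 4.602% of all genes. E2.8 was the lowest in 19, 3 and 24 genes and E1.3 in 4, 3 and 5. E1.3, E2.6 and E2.8 were all below all 3 WT lines in 52 of the 86 genes untreated, in 26 under pI:pC and in 47 under AO, which is 60.5%, 30.2% and 54.7% of the list against 3.47%, 2.84% and 2.72% of all genes. The summed macrophage, endothelial, skeletal muscle and smooth muscle markers were highest in E2.6, and the summed epithelial and adipocyte markers in E2.5. Apart from the macrophage sum, a few listed members carried these sums. The part of these markers in the result was not tested. E1.3 had macrophage sums of 3.23 to 5.55 CPM and E2.8 of 7.21 to 11.1 CPM, against 3.49 to 5.87 CPM in WT libraries. Those of E2.8 were thus above every WT library. Epithelial sums were 21.7 to 43.4 CPM in E1.3 and 8.90 to 14.55 CPM in E2.8, against 20.01 to 44.8 CPM in WT libraries.

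Ifit1, Isg15 and Rsad2 have a known place in the pathway and were picked here because they show the pattern. Ifit1, which binds viral RNA that lacks a host cap, Isg15, a ubiquitin-like modifier, and Rsad2, which encodes viperin, are all interferon-stimulated. Their promoters, from RefSeq on GRCm38.p6 and covering 250 bases before to 50 after the gene's start, are printed here because E2.5 was the highest and E2.6 the lowest line for all 3 in each treatment. Capitals mark matches on either strand to 2 copies of GAAA with any 2 bases between them, the core of the element that interferon factors bind, and matches may overlap, as they do in Isg15. The windows are chr19:34640639-34640938 on the plus strand for Ifit1, chr4:156200769-156201068 on the minus strand for Isg15 and chr12:26456403-26456702 on the minus strand for Rsad2.
Ifit1: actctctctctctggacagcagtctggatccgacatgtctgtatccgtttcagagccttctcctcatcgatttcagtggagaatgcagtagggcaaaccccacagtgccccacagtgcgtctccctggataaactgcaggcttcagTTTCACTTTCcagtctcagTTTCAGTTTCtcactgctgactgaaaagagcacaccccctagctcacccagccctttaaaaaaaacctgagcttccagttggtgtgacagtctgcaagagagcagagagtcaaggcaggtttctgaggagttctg
Isg15: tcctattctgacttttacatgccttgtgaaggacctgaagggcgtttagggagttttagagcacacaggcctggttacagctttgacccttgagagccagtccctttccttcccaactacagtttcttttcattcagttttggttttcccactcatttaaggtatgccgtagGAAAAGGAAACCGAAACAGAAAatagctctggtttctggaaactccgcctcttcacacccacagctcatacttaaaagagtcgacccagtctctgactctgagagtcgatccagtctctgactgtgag
Rsad2: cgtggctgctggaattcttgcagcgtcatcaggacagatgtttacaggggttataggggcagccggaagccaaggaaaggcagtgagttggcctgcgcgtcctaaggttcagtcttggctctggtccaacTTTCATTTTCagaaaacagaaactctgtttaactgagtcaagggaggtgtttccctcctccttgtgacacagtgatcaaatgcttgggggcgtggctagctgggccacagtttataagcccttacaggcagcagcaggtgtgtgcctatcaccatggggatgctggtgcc
The motif was in 1131 of 32851 promoters in the table (3.44%). A promoter was matched for 69 of the 86 tested interferon-stimulated genes, and 36 of these held the motif in at least 1 promoter (52.2%), against 1079 of 27025 genes with a promoter (3.99%). A match describes letters in a window and not a bound site.

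Ifit1 untreated stood at 83.5, 323, 45.9 and 61.8 CPM in het lines, against 144, 107 and 123 CPM in WT lines. Under pI:pC it stood at 726, 2414, 162 and 982 CPM in het lines and at 903, 888 and 1099 CPM in WT lines. Under AO it stood at 90.6, 182, 31.99 and 38.0 CPM in het lines and at 120, 69.8 and 115 CPM in WT lines. In each treatment E2.5 was the highest and E2.6 the lowest, and the WT lines lay inside the het range. The log2 difference was 0.04 ± 0.69 (SE) untreated, with a 95% interval of -1.38 to 1.47, then 0.15 ± 0.68 under pI:pC (-1.25 to 1.56) and -0.24 ± 0.69 under AO (-1.66 to 1.18). Each interval holds more than 1 log2 unit on both sides of 0, so neither a higher nor a lower level of that size was excluded at 4 against 3 lines. Isg15 under pI:pC stood at 260, 613, 71.6 and 300.5 CPM in het lines and at 384, 304 and 334 CPM in WT lines, a log2 difference of -0.13 ± 0.62. Rsad2 under pI:pC stood at 340.4, 2021, 108 and 243 CPM in het lines and at 401, 367 and 427 CPM in WT lines, a log2 difference of 0.77 ± 0.95. For Isg15 too, WT values lay inside the het range.

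A gene that amplifies the interferon signal and the RNA sensors had the same lines at the extremes under pI:pC. Irf7, the factor that amplifies interferon production, stood at 14.9, 111, 5.28 and 11.8 CPM untreated in het lines and at 26.1, 26.8 and 22.8 CPM in WT lines. Under pI:pC Irf7 stood at 59.9, 284, 14.98 and 93.5 CPM in het lines and at 93.1, 114 and 126 CPM in WT lines. The lowest and highest lines were again E2.6 and E2.5. Among the sensors, which are themselves interferon-stimulated, Ddx58 under pI:pC stood at 262, 615, 96.9 and 337 CPM in het lines and at 304, 352 and 375 CPM in WT lines. Ifih1 under pI:pC stood at 166, 473, 76.0 and 162 CPM in het lines and at 217, 166 and 192 CPM in WT lines. For Ifih1 the lowest line was E2.8 and not E2.6 untreated, at 29.9 and 35.3 CPM, and under AO, at 35.6 and 43.9 CPM. With edgeR's quasi-likelihood test, all of these had a Benjamini-Hochberg adjusted p of 1.

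The interferon gene itself and the chemokines were spread as widely. Ifnb1 had 0 counts in all 7 untreated libraries, which allows at most 0.361 to 0.688 CPM per library at 3 counts of its total. Under pI:pC it had 136, 436, 45 and 57 counts in het lines, against 173, 46 and 103 counts in WT lines, or 18.9, 50.7, 7.41 and 10.8 CPM in het lines and 22.7, 9.33 and 23.6 CPM in WT lines. The log2 difference was 0.25 ± 0.61, with a 95% interval of -1.04 to 1.54. Here the WT lines also varied. Cxcl10, a chemokine for T cells and a direct IRF3 target, stood at 837, 3658, 316 and 1278 CPM under pI:pC in het lines and at 974, 1219 and 1298 CPM in WT lines. Ccl5, another antiviral chemokine, stood at 109, 273, 29.3 and 106 CPM in het lines and at 145, 97.5 and 107 CPM in WT lines. E2.5 was the highest for all 3 genes and E2.6 the lowest.

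**Figure D2:**
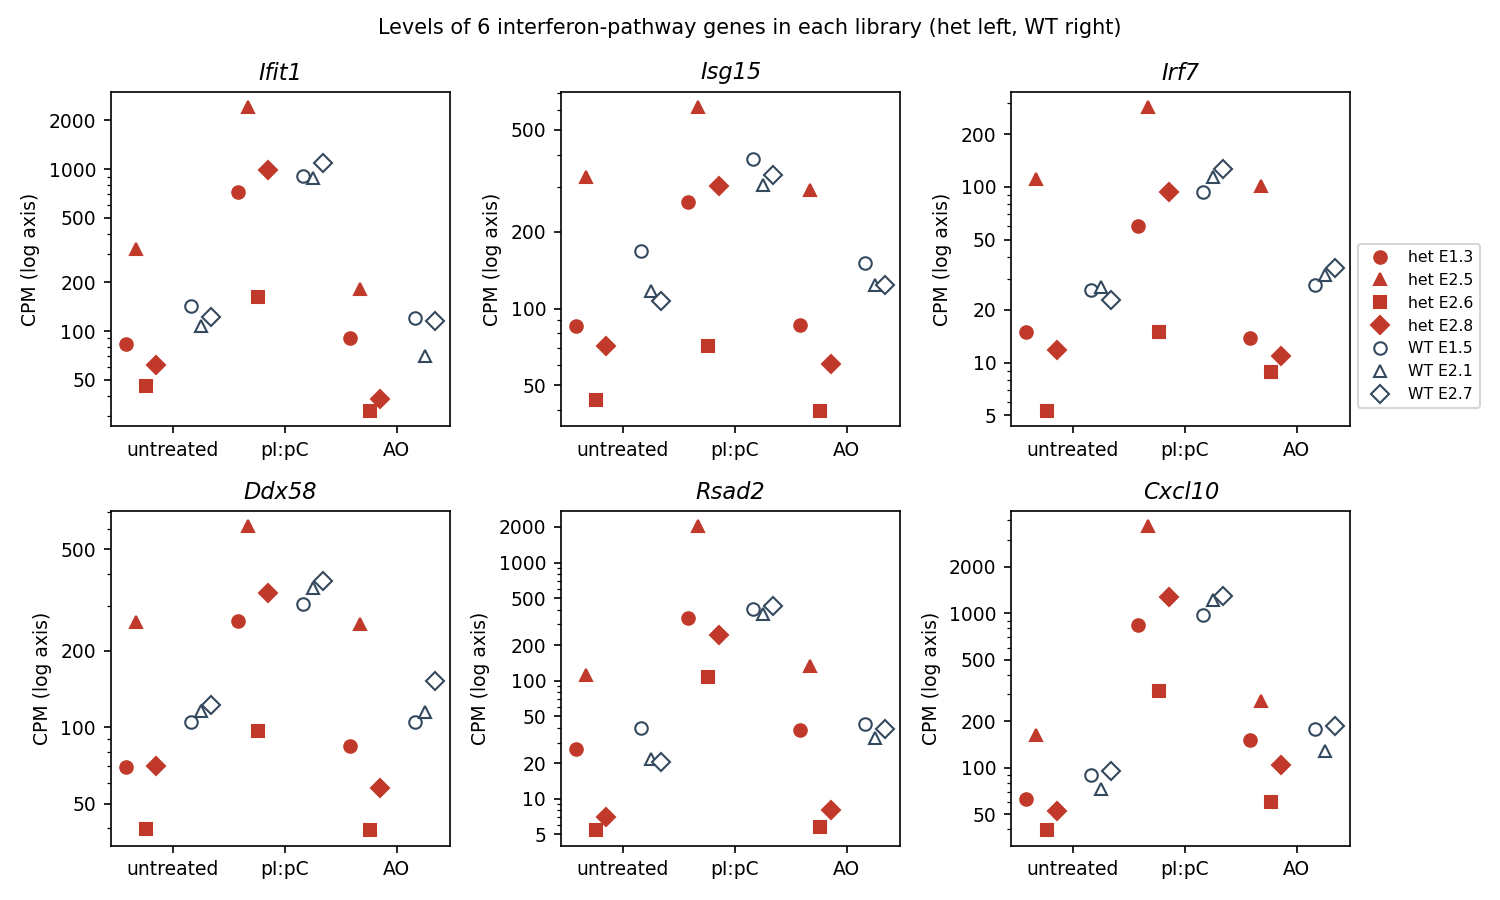
CPM on a log axis of Ifit1, Isg15, Irf7, Ddx58, Rsad2 and Cxcl10 in each library by treatment, het lines left in filled red and WT lines right in open dark symbols, with 1 symbol shape per line. Red triangles (E2.5) are the highest and red squares (E2.6) the lowest points of each treatment, as for Ifit1 under pI:pC at 2414 and 162 CPM.

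The upstream members that are not interferon-stimulated scattered less. Irf3, the substrate of TBK1, stood at 28.4, 26.9, 24.2 and 30.8 CPM under pI:pC in het lines and at 26.9, 24.1 and 24.7 CPM in WT lines. Mavs stood at 23.7, 21.2, 30.9 and 27.97 CPM in het lines and at 24, 23.9 and 24.9 CPM in WT lines. Log2 differences under pI:pC were 0.13 ± 0.18 for Irf3 and 0.09 ± 0.14 for Mavs. Of 26 genes for double-stranded RNA sensing and TBK1 signalling, 10 were higher in het lines untreated, 20 under pI:pC and 8 under AO, and 0 passed the test. Of the 26, Ddx58, Ifih1, Tlr3, Trim25 and Dhx58 are also on the interferon-stimulated list. Over the other 21 the median SD of log2 CPM was 0.16 in het and 0.15 in WT lines untreated, 0.26 in het and 0.14 in WT lines under pI:pC, and 0.18 in het and 0.13 in WT lines under AO. The het SD was the larger in 11, 18 and 15 of the 21, or 52.4%, 85.7% and 71.4%, against 63.3%, 67.5% and 68.7% of all genes tested.

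For the interferon-stimulated genes the median SD of log2 CPM was 1.31 in het lines and 0.26 in WT lines untreated. It was 1.51 in het and 0.30 in WT lines under pI:pC, and 1.26 in het and 0.30 in WT lines under AO. The het SD was the larger in 85, 86 and 85 of the 86 genes. Over all genes the median SD was 0.22 in het and 0.17 in WT lines untreated, 0.27 and 0.18 under pI:pC, and 0.23 and 0.16 under AO, and the het SD was the larger in 63.3%, 67.5% and 68.7% of genes. Without E2.5 the list's het median SD was 0.57, 1.02 and 0.56, and without both E2.5 and E2.6 it was 0.31, 0.29 and 0.42, with the het SD then larger in 53, 47 and 52 of the 86 genes. SDs over 2 to 4 lines are imprecise, and all genes of a list share the same 7 lines. These spreads are a description with no test.

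**Figure D3:**
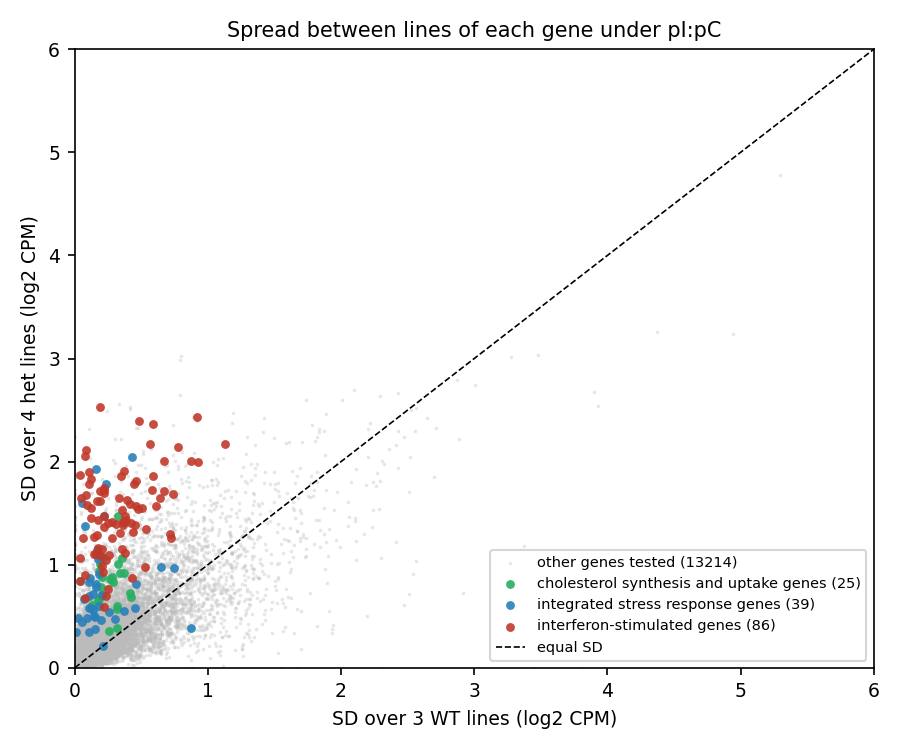
SD of log2 CPM under pI:pC over the 3 WT lines (x axis) and over the 4 het lines (y axis), 1 point per gene, with interferon-stimulated, integrated stress response and cholesterol genes coloured over all other genes. All 86 interferon-stimulated genes lie above the line of equal spread.

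In the interferon-stimulated list and in the test over all genes, the response to pI:pC did not separate the genotypes. The median log2 change of the interferon-stimulated genes from the untreated to the pI:pC library of the same line was 1.78, 1.58, 1.12 and 2.33 in het lines, against 1.45, 1.60 and 1.97 in WT lines. The means were 1.70 ± 0.50 in het lines and 1.67 ± 0.27 in WT lines (SD). E2.5, with the highest levels, had a response within the WT range, and its untreated level was already the highest. Ifit1 changed by 3.116, 2.899, 1.81 and 3.98 log2 units in het lines and by 2.65, 3.05 and 3.16 in WT lines. E2.6 had the smallest and E2.8 the largest response in both measures. In the test of the difference of responses, edgeR called 0 genes (0%), with 74 at an unadjusted p under 0.05 (0.554%), and DESeq2 called 0, with 65. The list's median difference of responses was 0.03, against 0.20 without E2.5, 0.08 without E2.6 and 0.38 without both, with 0 genes called in each fit. For AO against untreated edgeR called 0 genes (0%), with 33 at an unadjusted p under 0.05 (0.247%), and DESeq2 called 0, with 32. The interferon-stimulated genes changed little under AO in either genotype, with medians of -0.07, -0.31, -0.07 and -0.29 in het lines and -0.13, -0.26 and 0.15 in WT lines.

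The inflammatory genes that NF-kB drives were tested alongside, since TBK1 also acts in that pathway. Of 40 tested, 26 were higher in het lines untreated, 34 under pI:pC and 20 under AO, with median log2 differences of 0.05, 0.35 and -0.00, and 0 passed. Under pI:pC the median was 0.07 without E2.5 (28 of 40 higher), 0.48 without E2.6 (36 of 39) and 0.24 without both (29 of 39). Tnfaip3, which encodes the NF-kB inhibitor A20, stood at 199.6, 344, 202 and 198 CPM under pI:pC in het lines, against 192, 131 and 141 CPM in WT lines. Its 4 het values all exceeded the WT values, and its log2 difference was 0.61 ± 0.44. Il6 stood at 25.8, 69.3, 8.39 and 14.9 CPM under pI:pC in het lines and at 25.7, 11.96 and 23.8 CPM in WT lines. The per-line median response of the list to pI:pC was 0.98, 1.71, 1.01 and 1.68 in het lines and 1.10, 1.19 and 1.27 in WT lines, where E2.5 and E2.8 lay above and E1.3 and E2.6 below the WT lines.

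Whether the first part of the line name matters was looked at by comparing lines with the same prefix, E1 or E2, whose meaning the labels do not give. Among E1 lines there was 1 het and 1 WT line, and among E2 lines 3 het and 2 WT lines. The het minus WT difference in mean log2 CPM of the interferon-stimulated genes was -0.63 within E1 and -0.20 within E2 untreated. It was -0.36 and -0.33 under pI:pC and -0.41 and -0.39 under AO. The sign was that of the pooled log2 means in each case. With the prefix as a covariate, edgeR called 0 genes in each treatment, with 126, 171 and 88 at an unadjusted p under 0.05.

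Beside the homozygous N129D lines, the het lines as a group had higher interferon-stimulated genes under pI:pC. The hom lines, E2.2, E2.9 and E1.4, share the WT libraries with the comparison above, and the het libraries enter both the comparison with WT and that with hom. Under pI:pC Ifit1 stood at 726, 2414, 162 and 982 CPM in het lines, against 14.2, 34.3 and 47.0 CPM in hom lines. Even E2.6, the lowest het line, lay above every hom line. The log2 difference, het minus hom, was 5.08 ± 0.86, with an adjusted p of 0.00836 by edgeR's quasi-likelihood test with Benjamini-Hochberg adjustment. For Isg15 it was 3.63 ± 0.74 with an adjusted p of 0.0199 in the same edgeR test, and for Cxcl10 it was 3.51 ± 0.69 with an adjusted p of 0.0162. Under pI:pC 87 genes were higher (0.651%) and 1 lower (0.00748%) in het than in hom lines, and 39 of the 86 interferon-stimulated genes were among the higher. Untreated, 2 genes were higher (0.015%) and 0 lower, 1 of the 2 on the list. Under AO 0 were called in either direction. These counts depended on the lines included. Without E2.5, 92 genes were higher in het lines under pI:pC (53 of 85 on the list), 11 untreated (10) and 10 under AO (10). Without E2.6 there were 173 (68 of 86), 21 (18) and 17 (13), and without both 115 (65 of 85), 34 (28) and 26 (21). The list's median het minus hom difference without both was 1.58 untreated, 2.76 under pI:pC and 1.56 under AO.

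Set side by side, the median log2 difference over the list was 2.58 untreated, 3.46 under pI:pC and 2.43 under AO for het minus hom. It was -2.47, -3.18 and -2.46 for hom minus WT, with 1, 20 and 0 of the 86 genes called lower, where 0.015%, 0.254% and 0% of all genes were called lower. For het minus WT it was 0.13, 0.18 and 0.00 with 0 called. The lack of calls between het and WT thus stood beside calls in the same list between hom and WT in 1 fit with 1 estimate of spread. The interferon-stimulated genes had a median SE of 0.75 untreated, 0.71 under pI:pC and 0.75 under AO for het minus WT. A difference of 1 SE is far from enough for a call. For Ifit1 under AO, hom minus WT was -5.158 ± 1.005 and was not called, with an adjusted p of 0.134 by edgeR's quasi-likelihood test.

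A second gene group set E2.6 apart. The integrated stress response is the program that ATF4 drives when translation initiation is braked by amino acid lack, ER stress or mitochondrial failure, and AO is a known trigger of it. Its 39 listed genes had mean log2 CPM of 6.22, 6.37, 4.49 and 6.08 untreated in het lines, against 6.195, 6.22 and 6.28 in WT lines. Under pI:pC the level was 6.38, 6.30, 4.82 and 6.21 in het lines and 6.41, 6.24 and 6.32 in WT lines. Under AO it was 7.14, 7.26, 6.64 and 7.28 in het lines and 7.17, 7.22 and 7.25 in WT lines. E2.6 alone was low, by less under AO than in the other conditions. It was the lowest of the 7 lines in 37, 37 and 28 of the 39 genes.

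Trib3, a pseudokinase induced by ATF4, shows the size. It stood at 102, 113, 7.93 and 87.6 CPM untreated in het lines, against 91.5, 104 and 96.7 CPM in WT lines. Under AO Trib3 stood at 238, 219, 214 and 204 CPM in het lines, against 203, 218 and 199.6 CPM in WT lines, and E2.6 was then within the range of the others. Chac1, which degrades glutathione, stood at 47.1, 57.1, 3.36 and 41.7 CPM untreated in het lines and at 45.3, 50.3 and 53.2 CPM in WT lines. Under AO Chac1 in E2.6, at 144 CPM, was the highest of the 7 lines. Slc7a11, the cystine transporter, stood at 81.1, 87.3, 12.6 and 65.7 CPM untreated in het lines and at 89.3, 79.2 and 73.6 CPM in WT lines. Atf4 mRNA itself stood at 546, 574, 255 and 497 CPM in het lines and at 513, 544 and 554 CPM in WT lines. The median response of the list to AO was 0.84, 0.78, 1.998 and 1.06 log2 units in het lines and 0.90, 0.83 and 0.88 in WT lines, so that E2.6 started lower and changed more.

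As a group comparison this list gave no call. Its median log2 difference was -0.27 untreated (37 of 39 negative), -0.28 under pI:pC (36 negative) and -0.08 under AO (32 negative), with 0 genes passing. Without E2.6 the medians were -0.00 (20 negative), -0.04 (24 negative) and 0.02 (16 negative). The negative counts thus rested on 1 line. The macrophage markers were 39.1 to 63.0 CPM in that line, and their part in the result was not tested.

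The levels of the cholesterol genes followed E2.6 in the same way. SREBP2 turns on the genes of cholesterol synthesis and uptake when membrane sterols are low. The 25 genes had mean log2 CPM of 7.25, 6.87, 5.62 and 7.37 under pI:pC in het lines, against 7.19, 6.97 and 7.41 in WT lines. Untreated they were at 6.64, 6.495, 5.62 and 6.79 in het lines and 6.56, 6.37 and 6.77 in WT lines. E2.6 was the lowest of the 7 lines in 23, 25 and 23 of the 25 genes. Insig1, a sterol sensor that is itself a target, under pI:pC stood at 507, 314, 51.9 and 361 CPM in het lines and at 501, 319 and 417 CPM in WT lines. The list's median change with pI:pC was 0.597, 0.37, 0.01 and 0.58 in het lines and 0.64, 0.600 and 0.65 in WT lines. These genes were thus higher after pI:pC in 3 of 4 het lines and in all 3 WT lines. In this change all 4 het lines lay below all 3 WT lines, E1.3 by very little and E2.5 and E2.6 by more. The median difference of responses, het minus WT, was -0.14 (25 of 25 negative, 0 called), beside 0.00 over all genes. That fit includes E2.6, whose change of 0.01 was the smallest of the 7 lines. Its value without E2.6 is not given here, so the count of negatives is not read as a trait of all het lines. The median het minus WT difference was -0.15 untreated (21 of 25 negative), -0.29 under pI:pC (24 negative) and -0.10 under AO (23 negative). Without E2.6 it was 0.06 (4 negative), -0.01 (15 negative) and 0.15 (2 negative), and 0 genes passed with or without it.

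**Figure D4:**
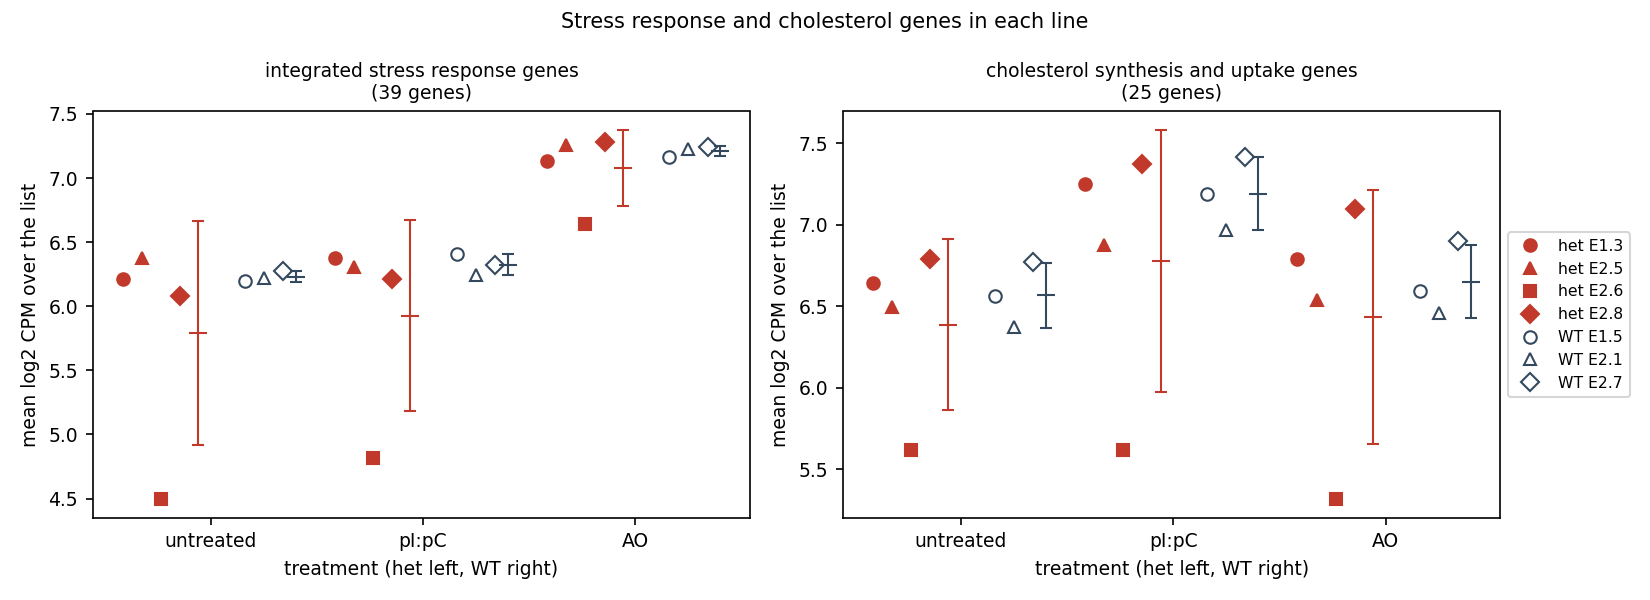
Mean log2 CPM of 39 integrated stress response genes and of 25 cholesterol genes (y axes) in each library by treatment (x axis), het lines left in filled red and WT lines right in open dark symbols, with mean ± SD over lines. E2.6 (square) is the low point in each treatment, at 4.49 for the stress response genes and 5.62 for the cholesterol genes untreated.

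The remaining lists gave small differences. Of 54 nuclear genes of oxidative phosphorylation, 50 were higher in het lines untreated and 43 under AO, while 42 were lower under pI:pC, with medians of 0.08, 0.06 and -0.07. Without E2.6 the counts were 36 higher untreated, 28 higher under AO and 39 lower under pI:pC. Of 24 actin, SRF and YAP target genes, 23 were higher untreated (median 0.16), 20 under pI:pC (0.08) and 21 under AO (0.17), and without E2.6 these counts were 15, 13 and 10. Of 39 autophagy and mitophagy genes, which include the TBK1 substrates Optn and Sqstm1, 16 were higher untreated, 19 under pI:pC and 24 under AO, with medians of -0.01, -0.00 and 0.04. Under AO Sqstm1, the p62 receptor, stood at 988, 1252, 754 and 916 CPM in het lines and at 1024, 1038 and 1022 CPM in WT lines, and its log2 difference was -0.07 ± 0.16. Optn stood at 32.2, 33.9, 23.9 and 28.7 CPM under AO in het lines and at 31.9, 26.2 and 27.9 CPM in WT lines. In G2 and mitosis genes the median SD was 0.09 in het and 0.11 in WT lines untreated, the het SD being the larger in 13 of 34 genes, so in that list the het SD was not the larger in most genes. None of the members of these lists passed the test in any treatment.

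**Figure D5:**
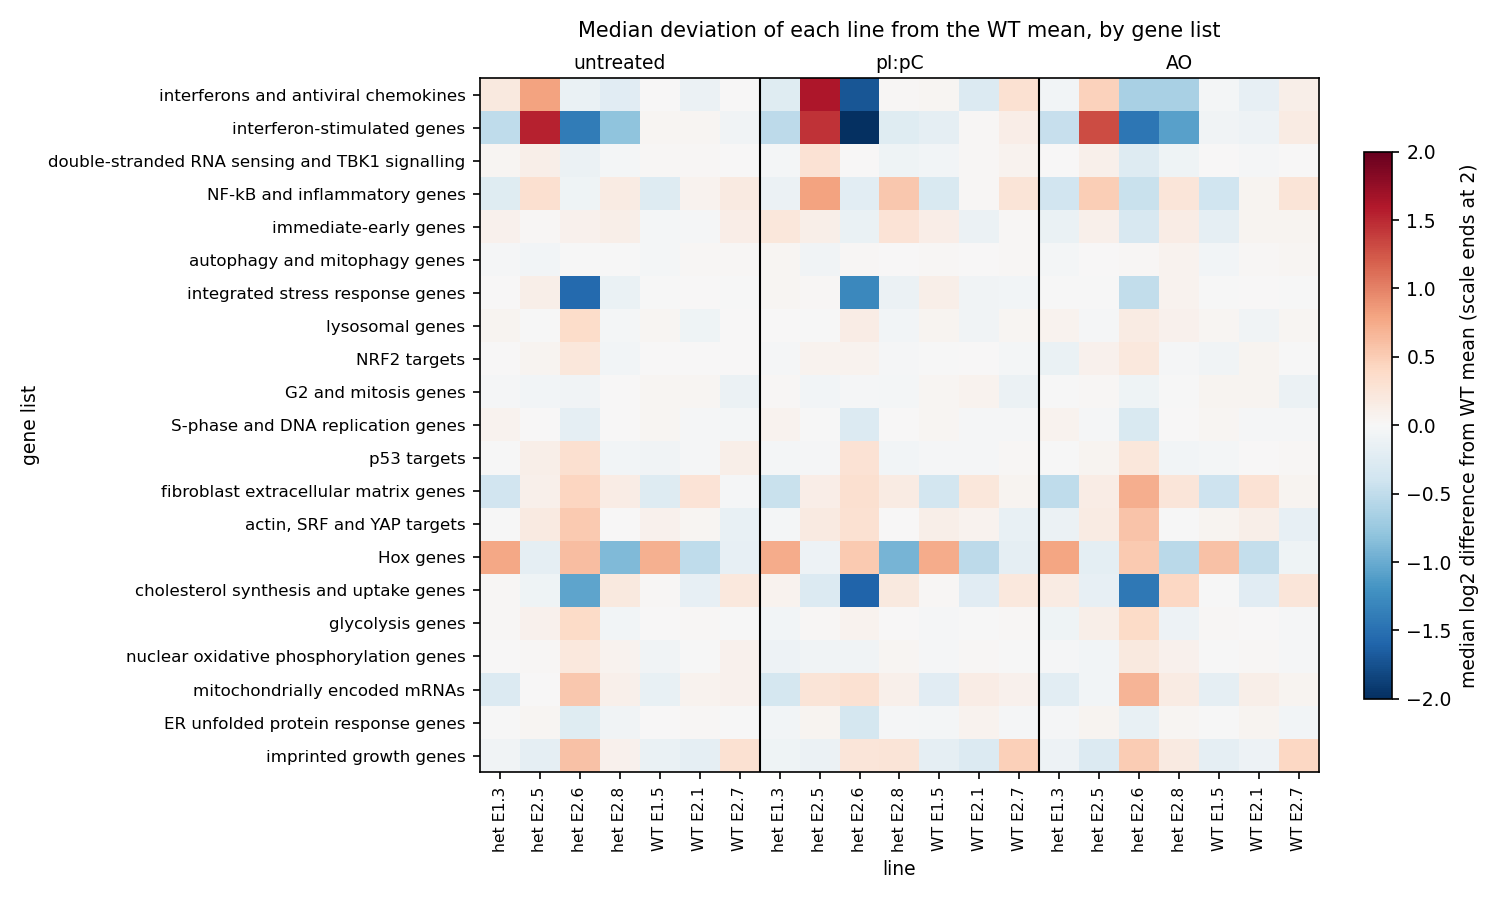
Median deviation in log2 units of each gene list (rows) from the mean of the WT lines or, for WT lines, from that same mean, in each library (columns, het lines left of WT lines, by treatment), with colours ending at 2. The interferon row is coloured strongly in E2.5 and E2.6 in opposite directions, and the stress response and cholesterol rows in E2.6.

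The Hox genes, which keep the position of origin of a fibroblast along the body, scattered in both genotypes. Median deviations untreated from the WT mean of 29 Hox genes were 0.77, -0.18, 0.62 and -0.89 in het lines and 0.71, -0.51 and -0.17 in WT lines. E1.3 and E1.5, of different genotype and the same name prefix, were both high. The 10 genes with the largest SD over the het lines were Xist, Upk1b, Thbs4, Igfbp2, Gjb2, Myrf, Dcn, Oasl2, Ifi44 and Rsad2. For Gjb2, Oasl2, Ifi44 and Rsad2 the WT lines were close to each other. Oasl2, an oligoadenylate synthetase-like gene, had a mean SD of 1.98 in het and 0.18 in WT lines. Gjb2, a gap junction protein, had mean levels over treatments of 85.8, 51.2, 4.66 and 143 CPM in het lines and 91.0, 70.5 and 108 CPM in WT lines, a mean SD of 2.22 in het and 0.31 in WT lines. Upk1b, a uroplakin of epithelia, and Dcn, the matrix proteoglycan decorin, varied at least as much among the WT lines, with mean SDs of 2.87 and 2.17 in het and 3.35 and 2.88 in WT lines.

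The genes nearest to a call are named without being called. Under pI:pC the smallest p belonged to Zhx2, a transcriptional repressor on chr15:57694665-57839832. It stood at 10.7, 11.3, 15.96 and 14.4 CPM in het lines, against 7.48, 8.31 and 8.004 CPM in WT lines. The log2 difference was 0.72 ± 0.14, with a 95% interval of 0.42 to 1.015 and an adjusted p of 0.538 by edgeR's quasi-likelihood test with Benjamini-Hochberg adjustment. Untreated, Zhx2 stood at 10.23, 10.72, 10.21 and 12.1 CPM in het lines and at 11.8, 11.3 and 9.99 CPM in WT lines, so the groups overlapped there. Bcl2l12, a BCL2-family related gene, stood at 7.77, 6.39, 7.24 and 8.32 CPM under pI:pC in het lines and at 11.02, 12.2 and 12.4 CPM in WT lines, a log2 difference of -0.67 ± 0.21. All het values of Zhx2 were above and all of Bcl2l12 below the WT values. Groups that did not overlap were found in 150 genes with het above (1.12%) and 145 with het below (1.09%) under pI:pC, 239 (1.79%) and 198 (1.48%) untreated, and 117 (0.875%) and 127 (0.95%) under AO.

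Untreated, Arhgap26, a GTPase-activating protein, stood at 2.86, 2.59, 1.20 and 1.71 CPM in het lines and at 0.95, 0.997 and 0.65 CPM in WT lines. Mmaa, needed for the vitamin B12 cofactor in mitochondria, had a log2 difference of 0.76 ± 0.27. Zfp628, a zinc finger gene, stood at 13.8, 11.8, 11.7 and 12.1 CPM untreated in het lines and at 9.53, 8.55 and 9.34 CPM in WT lines, whereas under AO it stood at 12.2, 13.1, 13.1 and 13.2 CPM in het lines and at 18.5, 16.3 and 13.9 CPM in WT lines. The order of the groups was thus reversed between these conditions, and neither difference passed. Chsy1, a chondroitin synthase, had an untreated log2 difference of -0.27 ± 0.12 and Gys1, the muscle-type glycogen synthase, one of -0.24 ± 0.10. Under AO Tbx2, a T-box factor, stood at 0.92, 2, 5.16 and 1.69 CPM in het lines and at 0.19, 0.54 and 0.63 CPM in WT lines. Several other genes near the top, such as Rpl17-ps5, Rpl9-ps7 and Pgk1-rs7, are pseudogenes or copies that share reads with a parent gene, so their values are uncertain.

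The sums over the 3 libraries of each line added counts without equal weight, so the mix of treatments differed between lines. In WT line E2.1 AO gave 14879227 counts and pI:pC 5166176, whereas het line E2.5 had 6481295 and 9355752. The part of this mix in the values below was not tested. In these sums Gys1 stood at 62.2, 68.6, 54.5 and 65.4 CPM in het lines and at 71.0, 82.2 and 72.7 CPM in WT lines. Its log2 difference was -0.27 ± 0.10. Amotl2, which holds YAP at junctions, stood at 242, 278, 306 and 280.2 CPM in het lines and at 241, 211 and 213 CPM in WT lines, a log2 difference of 0.32 ± 0.10. Spry2, an inhibitor of receptor tyrosine kinase signalling, stood at 43.8, 50.1, 45.3 and 42.8 CPM in het lines and at 39.9, 37.4 and 38.3 CPM in WT lines. Dock4, an exchange factor for Rac, stood at 21.5, 22.1, 23.3 and 19.5 CPM in het lines and at 23.6, 29.6 and 31.1 CPM in WT lines. Each of these 4 had groups that did not overlap, as did 95 genes with het above (0.675%) and 127 with het below (0.902%) in the sums, and edgeR's quasi-likelihood test gave each of the 4 a Benjamini-Hochberg adjusted p of 1.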

How the data were processed

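Poly(A) RNA libraries were made from 500 ng of total RNA with a stranded mRNA kit, per the labels' protocols. The authors deposited 1 table of expected counts per library for 49585 genes, made with STAR and RSEM on mm10 per the submitters' processing notes; the sources used here give no versions, annotation or strand setting. Between 6.11% and 11.2% of these expected counts were not whole, and they were rounded. Genes were matched to symbols through GENCODE vM21 (49326 matched). In R 4.3.3, edgeR 4.0.16 fitted 9 groups of genotype and treatment over 30 libraries, with TMM scaling and filterByExpr (minimum count 10, total 15), leaving 13364 genes. The quasi-likelihood test was called at a Benjamini-Hochberg adjusted p of 0.05. DESeq2 1.42.0 and limma 3.58.1 (voom) were alternatives, with other filters and scalings, line as a block, and each line left out. The 6 density libraries were not used. Log2 CPM used a prior count of 2. The scripts were tested on simulated data.

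Libraries of 1 line carry the same line name in the labels, so the line pairs treatments: over 21 pairs, deviations from group means correlated at 0.452 to 0.749. None of 27 same-group pairs of libraries agreed within sampling noise. The gene lists and the genes named were chosen with earlier results of these data known. Named genes are up to 8 per direction and comparison (called first, then by smallest p, with mean log2 CPM of at least 1 and no overlap), the 2 members of a described list with the smallest p, a fixed set around TBK1 and the treatments, and the 10 genes of largest SD over het lines with mean log2 CPM of at least 3. Trib3, Chac1, Slc7a11, Atf4 and Insig1 were named after their values were seen. Intervals and floors cover counting or line-to-line error only.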

Additional observations from a re-analysis of the deposited data

Results flagged for a closer look

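Groups of 4 het values in log2 CPM, 156 in all, were tested for a single distant value. The ratio was the gap to the nearest other value over the whole range, set against Dixon's 95% critical value. Of these groups 10 were flagged, where chance gives about 1 in 20. The CPM printed below are not on the log2 scale of the ratios. The integrated stress response list was flagged for E2.6 as the lowest, at a ratio of 0.846 untreated and 0.894 under pI:pC, and its member Ddit3, which encodes CHOP, at 0.884 untreated. Ddit3 stood at 80.8, 74.7, 20.9 and 69.1 CPM in het lines, against 74.2, 63.1 and 83.6 CPM in WT lines. Tnfaip3 under pI:pC was flagged for E2.5 as the highest, at 0.963, and Ccl2 untreated for E1.3 as the lowest, at 0.832, with 17.7, 61.2, 49.7 and 51.8 CPM in het lines and 22.2, 31.1 and 56.5 CPM in WT lines. The mitochondrially encoded mRNAs under pI:pC were flagged for E1.3 as the lowest, at 0.842. Ddx3y, a Y-linked gene, was flagged for E1.3 at 0.982 untreated, 0.960 under pI:pC and 0.950 under AO, and the list of X- and Y-linked genes under pI:pC at 0.830, since E1.3 is the 1 het line with high Xist. No interferon-stimulated gene in the fixed set was flagged.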

How the results depend on the processing

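Each comparison of het with WT was refitted under up to 18 other settings, and all 94 fits, the 6 main ones included, called 0 genes. The smallest adjusted p under any alternative was 0.894 untreated, 0.333 under pI:pC, 0.262 under AO and 0.944 for the sums over treatments, and 0.415 and 0.430 for the responses to pI:pC and AO (edgeR, limma or DESeq2). With line as a random replicate block in limma voom, 0 genes were called in each treatment, with 77, 143 and 59 at an unadjusted p under 0.05. With line as a fixed replicate block, 0 were called for the responses, with 251 (pI:pC) and 136 (AO) at an unadjusted p under 0.05; the pairing changed no call. Leaving out each line in turn gave 0 calls throughout, so the counts ranged from 0 to 0. Counts at an unadjusted p under 0.05 ranged over the alternatives from 58 to 268 untreated, 92 to 391 under pI:pC and 42 to 242 under AO. Of 435 named gene and comparison pairs, 200 took the other sign under at least 1 alternative. The 64 leading pairs kept theirs, but they had been chosen for having no overlap between het and WT lines. Leaving out a line could then hardly turn their sign, so this does not show them to be more stable. The sign of the interferon list depended on the model: its median was -0.44, -0.27 and -0.47 in limma voom with the line block. Calls between het and hom, 2 untreated, 88 under pI:pC and 0 under AO in all, depended on the lines. They were 11, 94 and 10 without E2.5, 21, 174 and 17 without E2.6, and 34, 115 and 26 without both; these fits were added after seeing the data and the cause was not tested. Depth was 4361854 to 14879227 counts per library, and its effect on the calls was not tested.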
